A study of Mus musculus with 20 samples.

Results

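The urea cycle genes were chosen by name as the 8 symbols Cps1, Otc, Ass1, Asl, Arg1, Nags, Slc25a15 and Gls2, with 1 row of the array annotation taken per symbol. Of these, 6 were found among the 19505 genes with a single symbol, and each had 1 feature. Ass1 and Gls2 had no row under their symbol and were not analysed here. The other 6 were described in liver RNA of mice labelled OGTL KO or OGTL WT, measured on 20 Clariom S Mouse arrays with 5 mice in each of 4 groups: KO at 4 weeks, WT at 4 weeks, KO at 8 weeks and WT at 8 weeks. OGT, the O-GlcNAc transferase, modifies nuclear, cytosolic and mitochondrial proteins with a single sugar, N-acetylglucosamine. The alleles, the Cre driver, the strain and the sex of the mice are not given in the sources used here, and no treatment was stated.

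The urea cycle turns ammonia, released when amino acids are broken down, into urea, and it runs in full mainly in hepatocytes, most strongly in those near the portal vein. Its first steps lie in the mitochondrion. NAGS makes N-acetylglutamate, the obligate activator of CPS1, CPS1 forms carbamoyl phosphate from ammonia and bicarbonate, and OTC joins that to ornithine to give citrulline. SLC25A15 exchanges ornithine for citrulline across the inner mitochondrial membrane. In the cytosol, ASS1 and ASL convert citrulline to arginine, ARG1 splits arginine into urea and ornithine, and the liver glutaminase GLS2 supplies ammonia from glutamine.

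The promoters of Slc25a15 and Otc are shown because Slc25a15 was the member that passed the test in a comparison and Otc had the smallest unadjusted p between KO and WT. Each window runs from 250 bases before to 50 bases after the annotated start in RefSeq (GRCm38.p6), read 5′ to 3′ on the strand of the gene. The searched motifs were the C/EBP motif TTGCNNAA, the cAMP response element core TGACG, the CCAAT box CCAAT, the TATA box TATAAA, the GC box GGGCGG, the HNF1 motif GTTAAT and the HNF4 motif CAAAGTCCA, on both strands. Capitals mark every match in these windows.
Slc25a15, chr8:22398572-22398871, minus strand: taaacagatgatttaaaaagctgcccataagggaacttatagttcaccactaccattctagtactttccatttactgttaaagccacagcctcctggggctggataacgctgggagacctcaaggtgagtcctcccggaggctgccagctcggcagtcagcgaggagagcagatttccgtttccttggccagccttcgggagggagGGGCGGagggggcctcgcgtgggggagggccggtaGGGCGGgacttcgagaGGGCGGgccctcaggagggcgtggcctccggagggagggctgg
Slc25a15, chr8:22398228-22398527, minus strand: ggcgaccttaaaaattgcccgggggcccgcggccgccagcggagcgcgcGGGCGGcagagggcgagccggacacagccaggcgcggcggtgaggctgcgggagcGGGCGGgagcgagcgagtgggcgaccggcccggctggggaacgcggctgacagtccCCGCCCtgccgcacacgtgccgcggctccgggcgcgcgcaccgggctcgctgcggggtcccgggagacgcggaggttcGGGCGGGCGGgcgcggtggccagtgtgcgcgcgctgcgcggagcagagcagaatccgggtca
Otc, chrX:10252055-10252354, plus strand: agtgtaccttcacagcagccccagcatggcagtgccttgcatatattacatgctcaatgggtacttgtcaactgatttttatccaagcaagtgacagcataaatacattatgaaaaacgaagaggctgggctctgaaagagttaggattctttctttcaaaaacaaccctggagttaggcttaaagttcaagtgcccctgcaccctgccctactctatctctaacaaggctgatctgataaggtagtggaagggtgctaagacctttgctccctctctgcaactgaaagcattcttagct
The first Slc25a15 window held the GC box at positions -44, -9 and 7 from the start site, counted as 0. The window of the other Slc25a15 start held it at positions -201, -146, -90, -12 and -8, and the last pair overlap. The GC box was present in 35.7% of the 32851 promoters in the table. The Otc window held none of the 7 motifs. Over all promoters the C/EBP motif was found in 10.8%, the CCAAT box in 37.4%, the TATA box in 13.6%, the HNF1 motif in 7.1% and the HNF4 motif in 0.475%. In the Nags window (chr11:102145263-102145562, plus strand) the GC box lay at positions -132 and -41 and the cAMP response element core at 31, a motif found in 20.8% of promoters. These matches describe letters in the windows and are not evidence of binding.

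The deposited values are log2 signals, so 1 unit is a 2-fold difference, and probes differ in brightness, so levels were compared between groups and not between genes. Array medians lay between 5.42 and 5.58. Ogt was 8.14 ± 0.53 in KO and 9.57 ± 0.31 in WT livers at 4 weeks (SD, n = 5 each), a log2 difference of -1.43 (SE 0.20, limma adjusted p = 8.82e-05) with no overlap. At 8 weeks Ogt was 9.81 ± 0.21 in livers labelled KO and 10.08 ± 0.20 in WT livers. That difference of -0.27 was not called (limma adjusted p = 0.529) and the groups overlapped, so the targeted transcript did not separate the 8-week genotypes on this array, and KO at 8 weeks means livers labelled KO throughout. Between the ages Ogt rose by 1.67 in livers labelled KO (limma adjusted p = 9.46e-06) without overlap. In WT livers the age difference was 0.51 (limma adjusted p = 0.136). The change of the Ogt genotype difference between the ages was 1.16 and was called (limma adjusted p = 0.0307). Whether the Ogt probes lie inside the deleted part is not given in the sources used here. Muscle transcripts were high on 3 arrays: Acta1, skeletal actin, was at 15.04 and 15.43 in replicates 4 and 5 of the 4-week KO group and at 15.89 in replicate 4 of the 4-week WT group, against 4.24 to 6.11 on the other arrays. Hepatocyte markers (9 of 10 measured) averaged between 18.98 and 19.23 on all arrays. Of the members, Cps1 lay above 16, the log2 limit of a 16-bit scanner, on 20 of 20 arrays, Otc on 15 and Arg1 on 14. How values above that limit arose was not given. Differences of these genes are on the deposited scale, which may be stretched or compressed there. The hepatocyte marker means also lay above that limit, and how well they show hepatocyte content was not tested.

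At 4 weeks all 6 measured members had a lower mean in KO than in WT livers, and none passed the test. In that comparison 10.2% of all genes were called at an adjusted p below 0.05, 5.48% lower in KO, and 8.55% had groups that did not overlap. Among the members 0 of 6 were called by limma and 0 of 6 had groups without overlap. An unadjusted limma p below 0.05 was found for 2 of the 6, beside 4363 of all 19505 genes. The median member difference was -0.42, beside 0.00 over all genes. At 8 weeks 5 of the 6 means were lower in KO and 0 were called, in a comparison with 6.58% of all genes called and 6.10% without overlap. An unadjusted limma p below 0.05 was found there for 0 of the 6, beside 3787 of all 19505 genes. The median member difference there was -0.23, beside -0.04 over all genes. In whole liver RNA, fewer hepatocytes and less RNA per hepatocyte cannot be told apart.

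**Figure D1:**
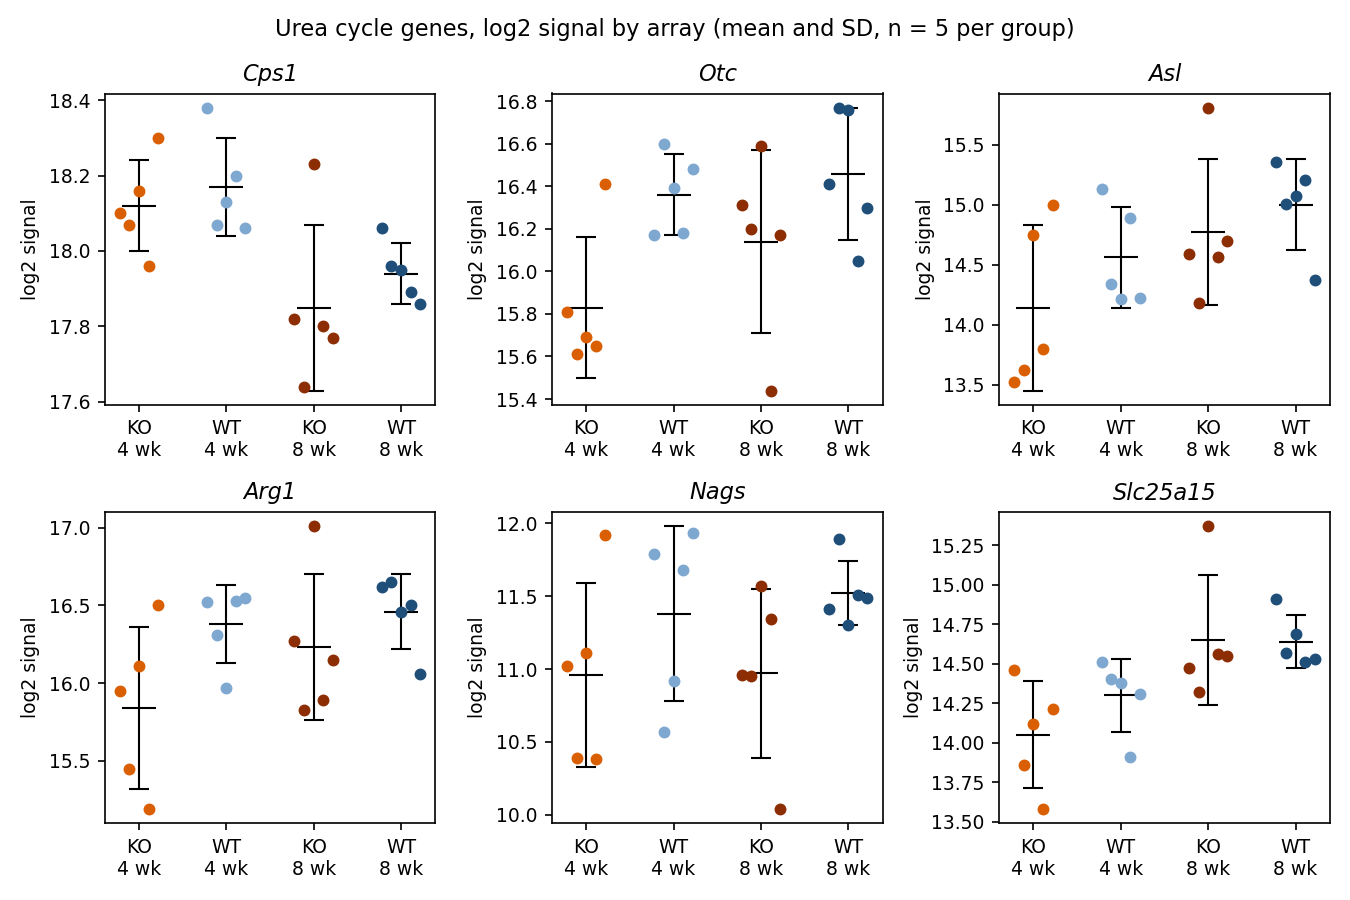
Log2 signal (vertical axes, a separate range for each gene) of the 6 measured urea cycle genes by group. Points are single arrays, and bars give the mean and SD of 5 arrays. For every gene the KO and WT points overlap at both ages, and Slc25a15 in 8-week KO livers has 1 point at 15.37 above the other 4.

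Nags was the member with the lowest KO mean relative to WT at 8 weeks. Its signal in 4-week KO livers was 11.02, 10.39, 11.11, 10.38 and 11.92, against 11.79, 10.57, 10.92, 11.68 and 11.93 in WT livers. In 8-week KO livers it was 10.96, 10.95, 11.57, 11.34 and 10.04, against 11.41, 11.89, 11.30, 11.51 and 11.49 in WT livers. In the 8-week KO group 3 arrays lay below every WT array, replicates 3 and 4 lay within the WT range, and at 4 weeks both genotypes spread over much the same range. The log2 difference was -0.41 at 4 weeks (SE 0.31, 95% interval -1.05 to 0.23, limma adjusted p = 0.489). At 8 weeks it was -0.55 (SE 0.31, 95% interval -1.19 to 0.09, limma adjusted p = 0.349, exact permutation p = 0.0794), which put the KO mean at 68.4% of WT.

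Cps1, the entry enzyme, varied least. Its signal was 18.10, 18.07, 18.16, 17.96 and 18.30 in 4-week KO livers, against 18.38, 18.07, 18.13, 18.20 and 18.06 in WT livers. In 8-week KO livers it was 17.82, 17.64, 18.23, 17.80 and 17.77, against 18.06, 17.96, 17.95, 17.89 and 17.86 in WT livers. Replicate 3 was the highest array of the 8-week KO group, and the other 4 lay below every 8-week WT array. The KO mean was 96.6% of WT at 4 weeks (95% interval 81.6% to 114%) and 93.8% at 8 weeks (95% interval 79.3% to 111%), with limma adjusted p = 0.868 and 0.739. All of these values lay above the 16-bit limit, and whether that limited the spread of Cps1 was not tested.

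Otc, the enzyme that makes citrulline, had the smallest unadjusted p of any member over the 2 comparisons of KO with WT, the one at 4 weeks. Its signal in 4-week KO livers was 15.81, 15.61, 15.69, 15.65 and 16.41, against 16.17, 16.60, 16.39, 16.18 and 16.48 in WT livers. Replicates 1 to 4 of the KO group lay below every WT array, and replicate 5 lay inside the WT range. The KO mean was 69.3% of WT (log2 difference -0.53, SE 0.20, 95% interval -0.94 to -0.12, exact permutation p = 0.0317), and limma gave an unadjusted p of 0.014 and an adjusted p of 0.1001 over all genes. Without KO replicate 5, an array with muscle transcripts, the difference was -0.67 and the adjusted p was 0.0283. Over all arrays left out 1 at a time, the difference ran from -0.67 to -0.47, with limma adjusted p from 0.0283 to 0.2116. Without all 3 arrays with muscle transcripts the difference was -0.71 with an adjusted p of 0.0585. With arrays weighted by their quality it was -0.58 with an adjusted p of 0.0459.

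At 8 weeks Otc was 16.31, 16.20, 16.59, 15.44 and 16.17 in KO livers, against 16.41, 16.77, 16.76, 16.05 and 16.30 in WT livers. The groups overlapped, with KO replicate 4 lowest of all 10 arrays. The KO mean was 80.3% of WT (log2 difference -0.32, SE 0.20, 95% interval -0.73 to 0.10, limma adjusted p = 0.412). The change of the Otc genotype difference between the ages was 0.21 (95% interval -0.37 to 0.80, limma adjusted p = 0.781).

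Slc25a15, the ornithine and citrulline carrier, was 14.46, 13.86, 14.12, 13.58 and 14.21 in 4-week KO livers, against 14.51, 14.40, 14.38, 13.91 and 14.31 in WT livers. At 8 weeks it was 14.47, 14.32, 15.37, 14.56 and 14.55 in KO livers, against 14.91, 14.57, 14.69, 14.51 and 14.53 in WT livers. At 4 weeks 2 KO arrays lay below all WT arrays, and at 8 weeks KO replicate 3 lay above every other array while the other 4 KO arrays were at or below the middle of the WT range. KO minus WT was -0.26 at 4 weeks (95% interval -0.64 to 0.13, limma adjusted p = 0.476) and 0.01 at 8 weeks (95% interval -0.38 to 0.40, limma adjusted p = 0.987). Without KO replicate 3 the 8-week difference was -0.17, and over all arrays left out 1 at a time it ran from -0.17 to 0.10.

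Asl, which releases arginine and fumarate from argininosuccinate, was the most variable member in KO livers at both ages. Its signal was 13.52, 13.62, 14.75, 13.80 and 15.00 in 4-week KO livers, against 15.13, 14.34, 14.21, 14.89 and 14.22 in WT livers. At 8 weeks it was 14.59, 14.18, 15.81, 14.56 and 14.70 in KO livers, against 15.36, 15.01, 15.07, 15.21 and 14.37 in WT livers. At 4 weeks 3 KO arrays lay below every WT array and replicates 3 and 5 lay within the WT range. At 8 weeks KO replicate 3 lay above and replicate 2 below all WT arrays. KO minus WT was -0.42 (95% interval -1.07 to 0.23, limma adjusted p = 0.485) at 4 weeks and -0.24 (95% interval -0.88 to 0.41, limma adjusted p = 0.75) at 8 weeks. Without replicate 3 of the 8-week KO group the 8-week difference was -0.50. Over all arrays left out 1 at a time it ran from -0.50 to -0.09.

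Arg1, the enzyme that yields urea, was 15.95, 15.45, 16.11, 15.19 and 16.50 in 4-week KO livers, against 16.52, 16.31, 15.97, 16.53 and 16.55 in WT livers. In 8-week KO livers it was 16.27, 15.83, 17.01, 15.89 and 16.15, against 16.62, 16.65, 16.46, 16.50 and 16.06 in WT livers. Replicates 1, 2 and 4 of the 4-week KO group lay below every WT array, and at 8 weeks KO replicates 2 and 4 lay below and replicate 3 above all WT arrays. The 4-week KO mean was 69.0% of WT (log2 difference -0.54, SE 0.23, 95% interval -1.02 to -0.05), and limma gave p = 0.031 before and p = 0.164 after adjustment (exact permutation p = 0.0714). Without KO replicate 5 the difference was -0.70 with a limma adjusted p of 0.0537. Over all arrays left out 1 at a time it ran from -0.70 to -0.37, with limma adjusted p up to 0.367. At 8 weeks the difference was -0.23 (95% interval -0.71 to 0.25, limma adjusted p = 0.657). Arg2, the mitochondrial arginase, averaged 5.43 ± 0.83 in KO and 4.07 ± 0.27 in WT livers at 8 weeks (SD, n = 5 each). It was called higher in KO (limma adjusted p = 0.00514). The WT mean lay below the background level of 5.20 and the KO mean 0.24 above it, so the size of the difference is uncertain. KO replicates 3 and 4 lay below that level, at 4.31 and 5.02.

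**Figure D2:**
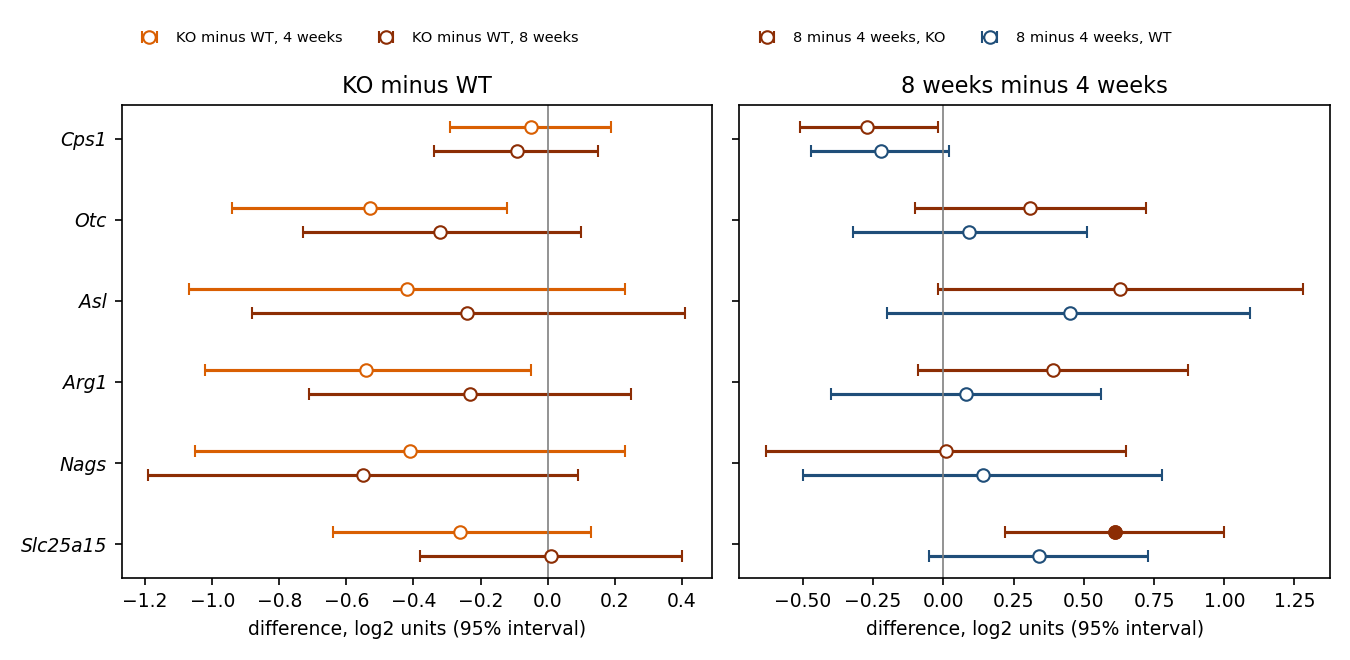
Differences of group means in log2 units (horizontal axes) for the 6 measured members, KO minus WT on the left and 8 weeks minus 4 weeks on the right, with 95% intervals. Filled points passed an adjusted p below 0.05 and open points did not. The filled point is Slc25a15 between the ages in KO livers, at 0.61.

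None of the 6 members had a genotype difference that was shown to change between the ages. The interaction ran from -0.13 for Nags to 0.31 for Arg1, with limma adjusted p from 0.689 to 0.942 and 0 of 6 called, in a test that called 3.05% of all genes. Its median over the members was 0.20, beside -0.02 over all genes. The 95% intervals were wide: for Arg1 the interval ran from -0.37 to 0.99, and for Asl from -0.73 to 1.1.

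Between the ages, Slc25a15 rose in KO livers and no other member was called in either genotype. In KO livers Slc25a15 averaged 14.65 ± 0.41 at 8 weeks and 14.05 ± 0.34 at 4 weeks (SD, n = 5 each), a log2 difference of 0.61 (SE 0.19, 95% interval 0.22 to 1.0, limma adjusted p = 0.0310, exact permutation p = 0.0159). The 8-week level was 152% of the 4-week level, and the groups overlapped through replicate 1 at 4 weeks. In this comparison 14.6% of all genes were called, 7.85% as higher, and 9.47% had groups without overlap, against 1 of 6 members called and 0 of 6 without overlap. The call was lost without replicate 2 (0.56, adjusted p = 0.0759) or 4 (0.49, adjusted p = 0.0927) of the 4-week KO group, without replicate 3 of the 8-week KO group (0.43, adjusted p = 0.0895), and without the arrays with muscle transcripts (0.51, adjusted p = 0.106). With only the KO groups in the fit, the adjusted p was 0.0942.

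In WT livers 8.94% of all genes were called between the ages and 9.08% had groups without overlap, against 0 of 6 members for both. Slc25a15 averaged 14.64 ± 0.17 at 8 weeks and 14.30 ± 0.23 at 4 weeks in WT livers, a difference of 0.34 (limma adjusted p = 0.304, exact permutation p = 0.0159). Whether that differs from the KO difference is the interaction above, which was 0.27 for Slc25a15 (95% interval -0.28 to 0.82). Cps1 was the member with lower means at 8 weeks in both genotypes. Its difference was -0.27 in KO livers (95% interval -0.51 to -0.02, limma adjusted p = 0.145) and -0.22 in WT livers (95% interval -0.47 to 0.02, limma adjusted p = 0.276). The KO value passed the test without replicate 3 of the 8-week KO group (-0.36, adjusted p = 0.0321) and after a repeated quantile normalization (-0.45, adjusted p = 0.0246). It did not pass in any other alternative run.

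The remaining age differences were not called. Asl was 0.63 higher at 8 weeks in KO livers (limma adjusted p = 0.203) and 0.45 higher in WT livers (adjusted p = 0.444). Arg1 differed by 0.39 in KO and 0.08 in WT livers, Otc by 0.31 in KO and 0.09 in WT livers, and Nags by 0.01 in KO and 0.14 in WT livers. The median member difference was 0.35 in KO livers (0.02 over all genes) and 0.12 in WT livers (0.04 over all genes). The genotype and age comparisons share arrays, since the 4-week KO group enters both the 4-week genotype comparison and the KO age comparison.

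By group mean, Otc, Arg1 and Nags had the same order, with 8-week WT highest, then 4-week WT, 8-week KO and 4-week KO, over a span of 0.62, 0.62 and 0.56. Asl was highest in 8-week WT livers followed by 8-week KO, 4-week WT and 4-week KO, over 0.87. Slc25a15 ran in the order 8-week KO, 8-week WT, 4-week WT and 4-week KO, over 0.61, and Cps1 in the order 4-week WT, 4-week KO, 8-week WT and 8-week KO, over 0.32. No neighbours in these orders that were compared differed past the threshold. The 4-week KO group had the lowest mean of 5 members and the 8-week WT group the highest of 4.

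For each array the 6 signals were centred on each gene's mean over the 20 arrays and averaged. This mean ranged from -0.69 to 0.28 in 4-week KO livers (median -0.30), against -0.11 to 0.30 in WT livers (median 0.12). At 8 weeks it ranged from -0.26 to 0.65 in KO livers (median -0.18), against -0.01 to 0.36 in WT livers (median 0.26). Replicate 5 of the 4-week KO group, at 0.28, and replicate 3 of the 8-week KO group, at 0.65, stood above the other KO arrays of their age. The members did not all follow that mean: on replicate 5 of the 8-week KO group Nags was at -1.17 and Slc25a15 at 0.14. Replicate 3 at 8 weeks was the highest array of its group for all 6 members.

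**Figure D3:**
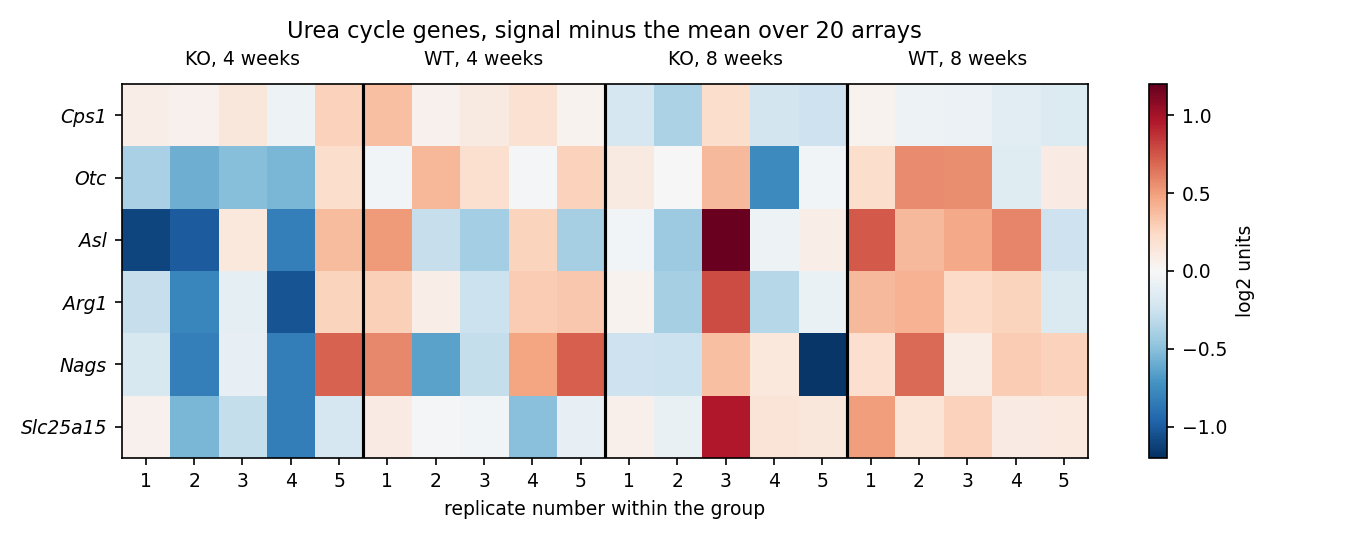
Signal of each measured member on each array, minus that gene's mean over the 20 arrays, in log2 units (colour scale), with columns numbered by replicate within the 4 groups. Replicate 3 of the 8-week KO group is above the mean for all 6 genes, and Cps1 shows the palest colours.

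Likeness to the mean of the members was taken as root-mean-square distance over the 20 arrays on centred log2 values. It was ranked among non-member genes whose SD reached at least 0.75 of that of the mean profile. The 5 most alike were Rwdd4a (0.186), Zfp236 (0.195), B4galnt4 (0.199), Aven (0.200) and Mcur1 (0.205). B4galnt4 was not above background in any group. The mean member profile itself had an SD of 0.332. Among the members, Arg1 lay closest to that mean (0.139) and Nags farthest (0.357), and Cps1 lay at 0.305, more than its own SD of 0.189, with the members' own values included in it.

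Several cell type marker lists also differed between the groups. Periportal hepatocyte markers other than the members (10 of 12 measured) averaged 14.18 to 15.01 on the 4-week KO arrays, against 14.77 to 15.06 on the WT arrays. At 8 weeks they averaged 14.76 to 15.77 on the KO arrays, against 15.08 to 15.48 on the WT arrays. At 4 weeks 3 of the 10 were called lower in KO and 1 higher, with a median of -0.80, and at 8 weeks 0 were called. Over all 19505 genes 1068 were called lower and 917 higher at 4 weeks, and 321 lower and 963 higher at 8 weeks. The interaction called 0 of the 10 periportal markers, beside 3.05% of all genes. Pericentral hepatocyte markers (10 of 13 measured) also had lower means at 4 weeks, in 10 of 10 genes, with 3 called lower and a median of -0.40. They averaged 12.04 to 12.33 on the 4-week KO arrays, against 12.05 to 12.96 on the WT arrays, and at 8 weeks 0 were called. The interaction called 1 of these 10 as higher. Slc1a2 was among those called lower at 4 weeks and is also counted in the ammonia list below, so these counts are not independent. Replicate 5 of the 4-week KO group and replicate 3 of the 8-week KO group had the highest periportal mean of their groups, at 15.01 and 15.77. Their pericentral means, 12.04 and 12.56, were the lowest of their groups, and replicate 5 of the 8-week KO group was also at 12.56. The part of these markers in the members' values was not tested.

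Of 7 non-hepatocyte marker lists, 3 had more than 1 gene called higher in KO livers at 8 weeks. Over all 19505 genes 963 were called higher and 321 lower there. Cholangiocyte markers (7 of 9 measured) averaged 6.66 to 8.82 on the KO arrays and 4.86 to 5.73 on the WT arrays, with 5 of 7 called higher. Macrophage and Kupffer cell markers (13 of 14 measured) averaged 7.55 to 8.60 on the KO and 7.41 to 7.65 on the WT arrays, with 7 of 13 called higher and 4 of 13 differences below 0. Stellate cell and myofibroblast markers (9 measured) averaged 8.98 to 10.26 on the KO and 7.54 to 8.43 on the WT arrays, with 5 of 9 called higher. Endothelial markers had 1 of 7 called higher, T, NK and B cell markers 0 of 9 higher and 1 lower, and neutrophil (6 measured) and skeletal muscle markers (12 measured) 0 called. On KO replicate 3, where the members were highest, each of these 3 lists had its lowest mean of the group. At 4 weeks macrophage markers averaged 8.47 to 8.74 on the KO and 7.88 to 8.34 on the WT arrays. Of the 13, 3 were called higher, beside 917 of all 19505 genes. Whether these markers account for any member difference was not tested.

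**Figure D4:**
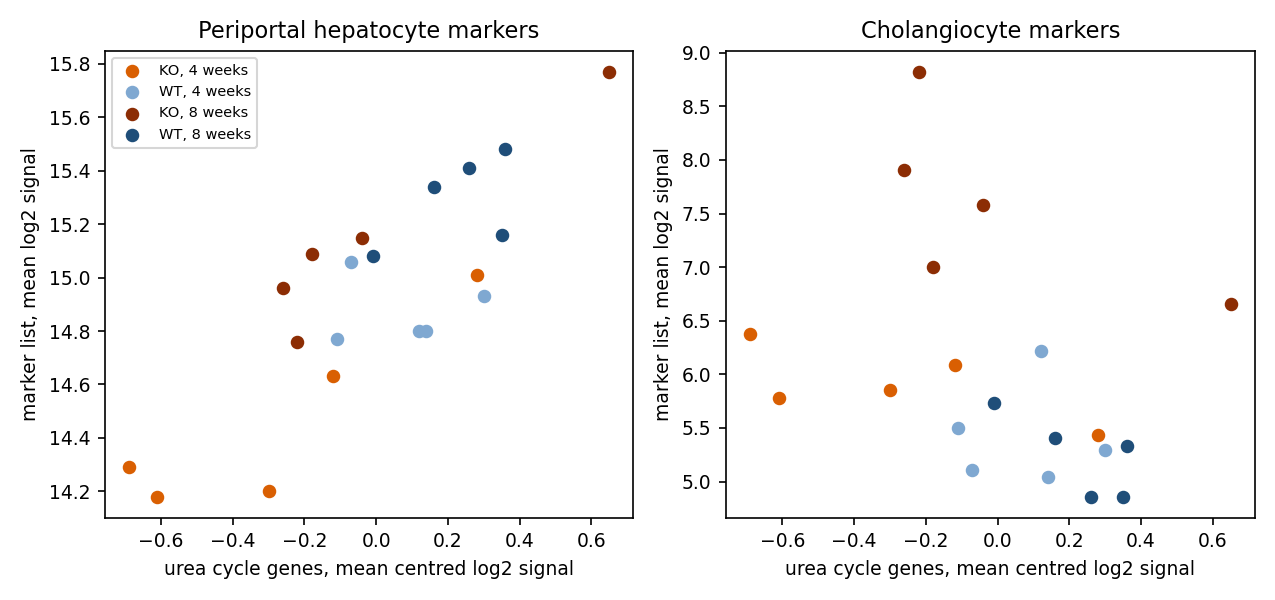
Mean centred log2 signal of the 6 measured members (horizontal axes) against the mean log2 signal of periportal hepatocyte markers (left) and cholangiocyte markers (right), 1 point per array, coloured by group. Replicate 3 of the 8-week KO group lies at 0.65 on the horizontal axis, with the highest periportal mean (15.77) and the lowest cholangiocyte mean (6.66) of its group.

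Of genes that handle ammonia, glutamine and glutamate, several were called lower in KO livers at 4 weeks. Glul, glutamine synthetase, had no row. Of 17 measured genes of the list, 7 were called lower, 0 higher and 10 neither, with a median of -0.55. Over all genes 5.48% were called lower in that comparison. Car5a, the mitochondrial carbonic anhydrase that supplies bicarbonate to CPS1, was -1.44 (SE 0.32, limma adjusted p = 0.00449). Aspg, an asparaginase, was -0.94 (adjusted p = 0.00201), and Gpt, the alanine aminotransferase, was -1.09 (adjusted p = 0.0134). These 3 calls held under every alternative. Got1, the cytosolic aspartate aminotransferase, was -1.91 (adjusted p = 0.0315), with a call that was lost without replicate 2, 3 or 4 of WT or 1 or 2 of KO (adjusted p 0.0585 to 0.0963). The glutamine and amino acid transporters Slc38a3 (-0.72) and Slc38a4 (-0.55) were called at adjusted p of 0.0213 and 0.0254. Slc38a3 was lost without WT replicate 2 or KO replicate 1 or 4 (adjusted p 0.0527 to 0.0661), and Slc38a4 without WT replicate 2 or 3 or KO replicate 1, 2 or 4 (adjusted p 0.0506 to 0.0776). The glutamate transporter Slc1a2 (-1.01, adjusted p = 0.0486) was lost without any 1 of 8 of the 10 arrays. After quantile normalization Slc38a3 (adjusted p = 0.0564) and Slc1a2 (0.0558) were not called, and with only the 4-week groups in the fit Slc38a4 (0.0606) and Slc1a2 (0.104) were not. Without the arrays with muscle transcripts, Got1, Slc38a3 and Slc38a4 were not called either (adjusted p 0.0509, 0.101 and 0.0877), and 5 of the 17 were. The count was 3 without WT replicate 2 or KO replicate 1, and 4 without WT replicate 3 or KO replicate 4. At 8 weeks 0 of the 17 were called by limma, beside 6.58% of all genes, and the median was -0.06. An unadjusted limma p below 0.05 was found there for 3 of the 17, beside 3787 of all 19505 genes. In that comparison Slc1a2 was -0.95 (limma adjusted p = 0.0850) without overlap, Car5a was -0.80 (limma adjusted p = 0.153), and 10 of the 17 differences were below 0. The interaction called 0 of the 17, beside 3.05% of all genes, so a change of these differences with age was not shown.

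Of 21 measured genes of the arginine, ornithine, proline and nitric oxide branch, 3 were called lower in KO livers at 4 weeks and 18 were not called. The share called lower over all genes was 5.48%. Prodh2, hydroxyproline dehydrogenase, was -1.78 (limma adjusted p = 0.00130), and Gamt, which makes creatine, was -1.28 (adjusted p = 0.00154). Slc25a13, the aspartate and glutamate carrier citrin that supplies aspartate to ASS1, was -0.57 (adjusted p = 0.0299), and its call was lost without WT replicate 1, 2 or 5 or KO replicate 1 or 2 (adjusted p 0.0587 to 0.1), after quantile normalization (0.0546) and with only the 4-week groups in the fit (0.0543). At 8 weeks 2 were called higher and 1 lower, beside 963 and 321 of all 19505 genes. Beside Arg2, Ddah2, which degrades methylated arginines, was called higher (limma adjusted p = 0.00526). Its WT mean lay below the background level of the WT group and its KO mean 0.83 above that level. Slc25a10, the dicarboxylate carrier, was -0.67 (adjusted p = 0.0260), a call lost without WT replicate 3 or 4 or KO replicate 2 or 5 (adjusted p 0.0629 to 0.0828), with a replicate block (0.0568) and with only the 8-week groups in the fit (0.0616).

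Among 18 measured known regulators of urea cycle genes or their proteins, 3 were called lower in KO livers at 4 weeks, with a median of -0.42. The share called lower over all genes was 5.48%. The transcription factor Foxo1 was -1.28 (limma adjusted p = 0.00218). The glucocorticoid receptor gene Nr3c1 was -0.61 (adjusted p = 0.0174), a call lost without WT replicate 2 or KO replicate 2 (adjusted p 0.0566 and 0.0585). Klf15, a factor of amino acid catabolism, was -1.27 (adjusted p = 0.0241), a call lost without WT replicate 2 or 3 or KO replicate 1 or 2 (adjusted p 0.0523 to 0.0764). Without WT replicate 2 or KO replicate 2, 1 of the 18 was called lower. The interaction called 0 of these 18 and 0 of the 21 arginine branch genes, beside 3.05% of all genes. At 8 weeks Cebpa, a liver transcription factor, was called (-0.77, adjusted p = 0.0349), and 8 of the 10 arrays each removed the call when left out (adjusted p up to 0.0881), as did quantile normalization (0.0524).

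**Figure D5:**
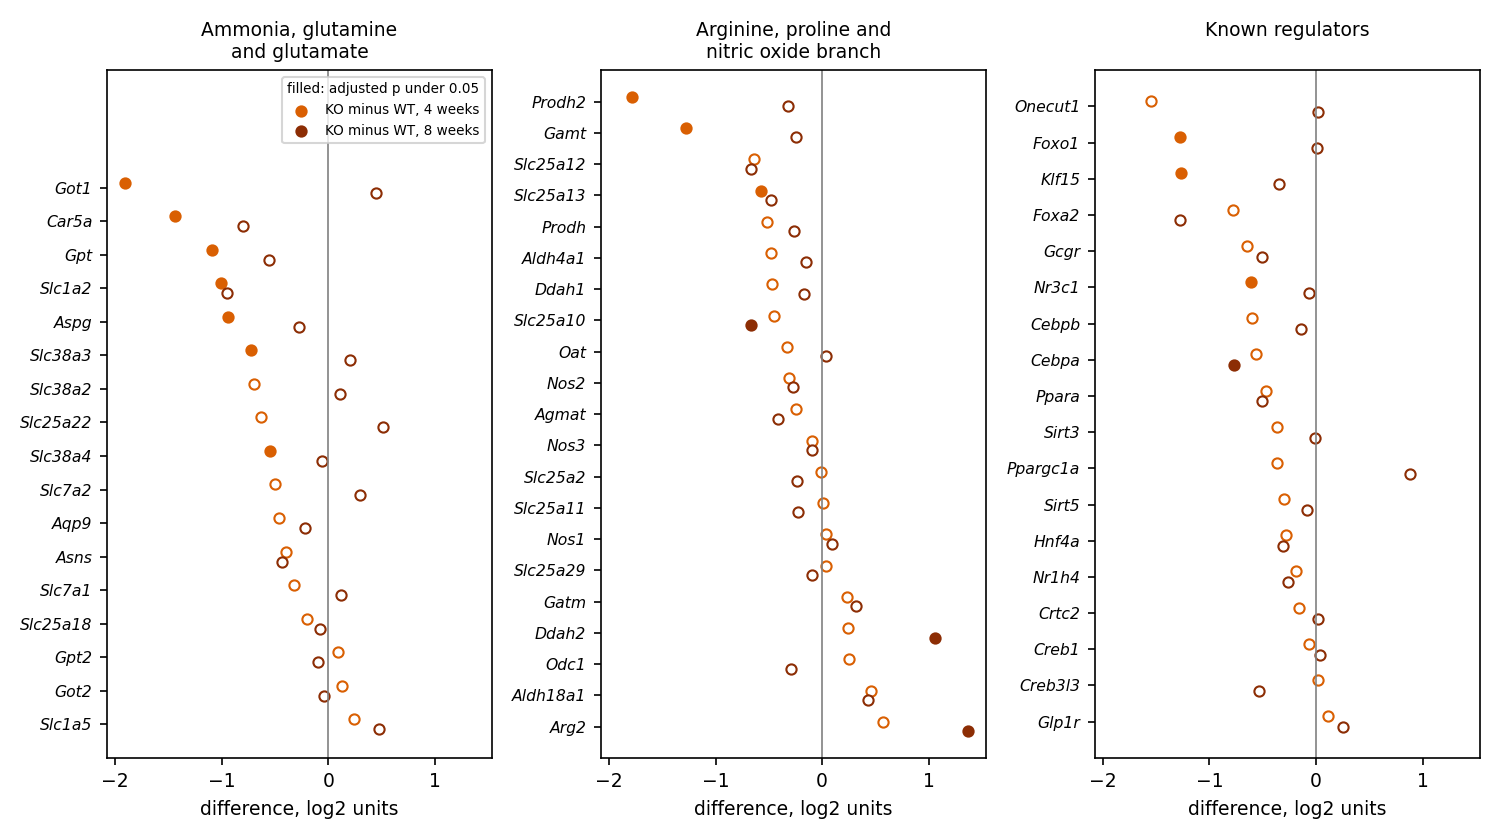
KO minus WT in log2 units (horizontal axes) for the measured genes of the 3 lists, at 4 weeks and 8 weeks. Filled points passed an adjusted p below 0.05, and the filled 4-week points all lie below 0.

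Between the ages in KO livers, 7 of 17 genes of ammonia handling were called higher and 2 lower, 3 of 21 genes of the arginine branch were called higher and 1 lower, and 6 of 18 regulators were called higher and 1 lower. Without replicate 3 of the 8-week KO group the 7 became 4. Over all 19505 genes 1532 were called higher and 1323 lower between the ages in KO livers. Oat, ornithine aminotransferase, was at 213% of its 4-week level (limma adjusted p = 0.00277), Slc38a4 was 0.72 higher (adjusted p = 0.00263) and Klf15 was 1.54 higher (adjusted p = 0.00466). In WT livers 2 of 17, 0 of 21 and 2 of 18 were called higher and 1, 0 and 1 lower. Over all 19505 genes 723 were called higher and 1021 lower there. Cebpa was higher at 8 weeks in both genotypes, by 0.98 in KO (adjusted p = 0.00356) and 1.19 in WT livers (adjusted p = 0.000922). Ppargc1a, a coactivator of fasting metabolism, was lower at 8 weeks, by a difference of -1.37 in KO (adjusted p = 0.0169) and -2.63 in WT livers (adjusted p = 7e-05). The KO call of Ppargc1a was lost without replicate 4 of the 4-week KO group (-1.04, adjusted p = 0.0525) or replicate 2 of the 8-week KO group (-1.12, adjusted p = 0.0578), and without the arrays with muscle transcripts (-1.02, adjusted p = 0.0872) or with only the KO groups in the fit (adjusted p = 0.0535).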

How the data were processed

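Liver RNA from 20 mice was measured on 1 array each. The authors deposited log2 signals made with RMA in Affymetrix Expression Console, per the submitters' processing notes, with versions not given in the sources used here. Symbols came from the platform annotation. Of 22206 features, 19572 had 1 symbol and the other 2634, with none or several, were left out. For 55 symbols with several features the one with the highest mean was kept, leaving 19505 genes. The log2 values were used as deposited. limma 3.58.1 (R 4.3.3) fitted 4 group means with eBayes (16 residual degrees of freedom), and Benjamini-Hochberg adjustment ran over all 19505 genes, with a threshold of 0.05. The fit was tested on simulated data. Two-sided exact permutation tests of 5 against 5 arrays cannot give a p below 0.00794. The background level, 5.02 to 5.20 by group, was the 95th percentile of the group means of 1410 olfactory and vomeronasal receptor genes and was set after the results were seen. The members, lists and tests were chosen with earlier results of these data known. All measured members were to be named, and of each pathway list up to 5 called genes per comparison with the smallest adjusted p; Got1, and Slc1a2 at 4 weeks, were added after their values were seen. Of those, not every one is described for the age comparisons. Array numbers in the titles run in group order, so array order and group cannot be told apart, and the number of arrays limits the precision. Alternatives were other scalings, gene filters, array weights, a replicate block and leaving out arrays.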

Additional observations from a re-analysis of the deposited data

Results flagged for a closer look

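In 24 groups of 5 arrays (6 genes in 4 groups), the gap between the most extreme array and its nearest neighbour was set against the range of the group, and 2 groups passed the 95% critical value of 0.71. Chance flags about 1 in 20 groups. Otc in 4-week KO livers had its highest array, replicate 5, at 16.41, with the other 4 between 15.61 and 15.81. Slc25a15 in 8-week KO livers had its highest array, replicate 3, at 15.37, with the other 4 between 14.32 and 14.56. Replicate 5 of the 4-week KO group also carried muscle transcripts (Acta1 at 15.43), and their part in its Otc value was not tested.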

How the results depend on the processing

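The number of members called was 0 between KO and WT at 8 weeks, in the interaction and between the ages in WT under every alternative run. Between KO and WT at 4 weeks it was 1 with array weights and 0 to 1 when 1 array was left out. Between the ages in KO it was 2 after a repeated quantile normalization, 0 with only the groups compared, 0 without the arrays with muscle transcripts (an alternative chosen after seeing the data) and 0 to 1 when 1 array was left out. Leaving out 1 array gave 3 to 7 ammonia genes and 1 to 4 regulators called lower at 4 weeks. Between the ages in KO, 4 to 8 ammonia genes were called higher when 1 array was left out and 4 with only the groups compared, and 5 arginine branch genes with the dimmest 25% of genes left out or with array weights. Of the member differences under alternatives, 589 kept sign and call, 20 changed sign, 4 gained and 5 lost a call.

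The differences that changed sign were not called in any alternative run. Cps1 at 4 weeks was 0.09 after quantile normalization and -0.10 to 0.00 when 1 array was left out. Slc25a15 at 8 weeks was -0.08 with array medians set equal, -0.03 with array weights and -0.17 to 0.10 when 1 array was left out. With 1 array left out, the interaction ran from -0.14 to 0.01 for Cps1, -0.08 to 0.40 for Asl and -0.28 to 0.10 for Nags. The age difference in WT ran from -0.02 to 0.18 for Arg1 and -0.06 to 0.28 for Nags, and that in KO from -0.14 to 0.25 for Nags. The cause was not tested.

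With array medians set equal, genes called between KO and WT numbered 716 higher and 1349 lower at 4 weeks (917 and 1068 as deposited) and 817 higher and 727 lower at 8 weeks (963 and 321 as deposited). Same-numbered KO and WT arrays had deviations from their group means that correlated between -0.176 and 0.479. Of 10 KO arrays, 4 correlated best with the WT array of their own number. Some such matches arise by chance, and how many was not tested, so these values cannot decide whether the numbers pair the samples. With the replicate block, 0 members were called in either genotype comparison, the interaction and the WT ages, and 1 between the ages in KO.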
